A study of Mus musculus with 6 samples.

Results

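Dcbld2, Dcbld1, Nrp1 and Nrp2 are the mouse genes for the neuropilin-like receptors DCBLD2 and DCBLD1 and for the neuropilins NRP1 and NRP2. They were taken by gene name from a table of 34745 genes, and each of the 4 names matched 1 gene. Dcbld2 was selected on its difference in level between control and PDTLN1 in these same libraries, so its change is described here without a test. The other 3 genes were included as its relatives by domain structure. The libraries came from P19 cells, embryonal carcinoma cells of the mouse used as a model of cardiac and neural differentiation, and both groups were grown in alpha-MEM with fetal bovine serum, penicillin and streptomycin. In 3 control libraries the cells had no treatment, and in 3 others they received the peptide PDTLN1. The labels state no dose or duration, and they do not explain the code in the titles of the treated libraries. The libraries held between 10381307 and 11663081 gene counts. Nothing in the labels says that libraries of a group came from separate cultures, so the spread behind each p-value may be technical.

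The receptors cross the membrane once and carry CUB and discoidin (coagulation factor V/VIII type) domains outside the cell. DCBLD1 and DCBLD2 also have an LCCL domain, and the neuropilins a MAM domain and a short tail that ends in a PDZ-binding motif. Neuropilins bind most secreted class 3 semaphorins together with plexins, and VEGF together with its receptor kinases. Through these they guide axons and growing vessels. DCBLD2, also called ESDN or CLCP1, is known from vascular smooth muscle, endothelium and tumour cells. The tails of both DCBLD proteins are tyrosine-phosphorylated and bind the adaptors CRK and CRKL.

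All 4 genes lie on the plus strand, with positions given in GRCm38 as in the table. Dcbld2 (ENSMUSG00000035107) lies on chromosome 16 from 58408443 to 58469727, and its transcript with the most exons has 16. Dcbld1 (ENSMUSG00000019891) lies on chromosome 10 from 52233619 to 52321378, with up to 11 exons. Nrp1 (ENSMUSG00000025810) is on chromosome 8 from 128359073 to 128505462 and Nrp2 (ENSMUSG00000025969) on chromosome 1 from 62703285 to 62818695, each with up to 17 exons. RefSeq promoter windows, from 250 bases before to 50 after a start, were found for Dcbld2, Nrp1 and Nrp2 in build GRCm38.p6. The stretch of the Dcbld2 window that lies before the GENCODE start is shown because Dcbld2 is the gene whose level differed, with every GGGCGG and every CCAAT (read as ATTGG on this strand) in capitals; it spans chr16:58408285-58408442, plus strand, 158 bases.
Dcbld2 upstream: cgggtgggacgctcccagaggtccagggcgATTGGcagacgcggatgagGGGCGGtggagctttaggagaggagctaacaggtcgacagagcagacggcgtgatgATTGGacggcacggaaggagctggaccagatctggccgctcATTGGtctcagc
This stretch held 3 CCAAT motifs, all on the minus strand, and 1 GGGCGG, and these motifs did not overlap each other. Counted on both strands, 37.4% of 32851 promoter windows held a CCAAT and 3.37% held at least 3. The Nrp1 and Nrp2 windows held no CCAAT. The motif GGGCGG occurred 2 times in the whole Dcbld2 window, 5 times in that of Nrp2 and 1 time in that of Nrp1, and in 35.7% of all windows. None of the 3 windows held TATAAA, which 13.6% of all windows did. CG dinucleotides numbered 35, 37 and 14 in the windows of Dcbld2, Nrp2 and Nrp1, against a median of 7. These matches describe the letters only, and no file here measured what binds there.

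Dcbld2 was the receptor gene whose libraries separated by treatment. Its counts were 529, 517 and 490 in the controls, in the order of their numbers, and 1569, 1784 and 1726 in the PDTLN1 libraries. Scaled to library size this gave 50.8, 48.5 and 43.9 CPM (counts per 1e6 counts of the library) in controls and 152, 155 and 147 CPM after PDTLN1. The lowest PDTLN1 library lay far above the highest control, and the 3 treated libraries were close to each other. The means were 47.7 ± 3.49 and 151 ± 3.82 CPM (SD, n = 3 each). The log2 fold change was 1.67 (SE 0.08). Among the treated libraries the coefficient of variation was 2.52%, about what counting error alone gives (2.43%), and in controls it was 7.32% against 4.42%. Of the 4 receptor genes, 1 passed edgeR's threshold (quasi-likelihood test, Benjamini-Hochberg adjusted p under 0.05 over all genes), where 0.0217% of the 13836 tested genes did. Likewise 1 of the 4 had groups that did not overlap, against 9.79% of all tested genes in either direction and 4.81% with higher values after PDTLN1. Dcbld2 is the gene in both counts, and it was chosen for this contrast, so nothing is read from them.

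Dcbld1, the closest relative of Dcbld2 and the less studied of the pair, did not separate by treatment. Its levels were 21.2, 17.3 and 13.8 CPM in control libraries 1 to 3 and 15.5, 23.3 and 21.6 CPM in PDTLN1 libraries 1 to 3. The groups overlapped: the highest control was about level with PDTLN1 library 3, and PDTLN1 library 1 lay below control 2. The log2 fold change was 0.21 (SE 0.20), the 95% interval ran from -0.23 to 0.66 and edgeR gave an adjusted p of 0.989. The interval leaves room for a rise of up to 1.58-fold and a fall to 0.852 of the control level. The spread of Dcbld1 was the widest of the 4 genes, with a coefficient of variation of 21.3% in controls and 20.4% after PDTLN1 where counting alone gives 7.33% and 6.64%.

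Nrp2, the neuropilin that binds mainly semaphorin 3F and VEGF-C, had 44.2, 50.5 and 53.0 CPM in control libraries 1 to 3. After PDTLN1 it had 58.3, 46.1 and 50.6 CPM in libraries 1 to 3. The highest value was in PDTLN1 library 1 and the lowest in control library 1, with the other 4 libraries between them. The log2 fold change was 0.07 (SE 0.11), the 95% interval ran from -0.18 to 0.32 and edgeR gave an adjusted p of 0.989. Its sign turned without control library 1 (-0.0047) or PDTLN1 library 1 (-0.03), and without both it was -0.10.

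Nrp1, the receptor for semaphorin 3A and VEGF-A, was the scarcest of the 4. Its counts were 48, 46 and 58 in controls 1 to 3, and those of PDTLN1 libraries 1 to 3 were 50, 51 and 53. The treated libraries all lay within the range of the controls. The log2 fold change was -0.04 (SE 0.18), the 95% interval ran from -0.44 to 0.37 and edgeR gave an adjusted p of 0.992, and it was 0.04 without control library 3. In both groups the libraries differed by less than counting noise, with a variance 0.477 and 0.0932 times that of counting. At 46 to 58 counts a library, the interval spans 0.736 to 1.29 times the control level, and changes within it were not detectable.

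**Figure D1:**
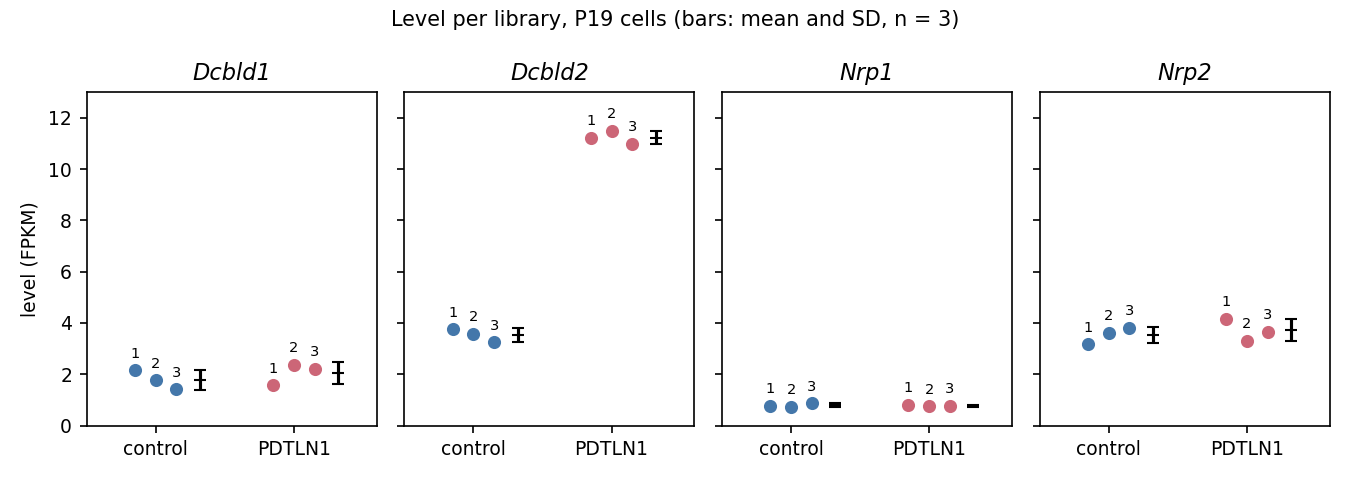
Levels of the 4 receptor genes in FPKM (vertical axis) by group (horizontal axis). Points are libraries with their replicate numbers, and bars are the mean and SD (n = 3). Dcbld2 lies at 3.25 to 3.75 FPKM in controls and 11.0 to 11.5 FPKM after PDTLN1, and the groups overlap for the other 3 genes.

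Levels of different genes were compared per length, in the deposited FPKM (counts per unit of gene length and depth). In controls Dcbld2 and Nrp2 were level with each other at 3.53 ± 0.256 and 3.53 ± 0.329 FPKM, followed by Dcbld1 at 1.78 ± 0.377 and Nrp1 at 0.795 ± 0.0765 FPKM (SD, n = 3 each). The order of Dcbld2 and Nrp2 differed between control libraries, whose ratios of Dcbld2 to Nrp2 were 1.19, 0.988 and 0.854. Both lay above Dcbld1 and Dcbld1 above Nrp1 in every library of either group. After PDTLN1 the order was Dcbld2 at 11.2 ± 0.258, Nrp2 at 3.71 ± 0.434, Dcbld1 at 2.06 ± 0.426 and Nrp1 at 0.778 ± 0.0337 FPKM (SD, n = 3 each), and Dcbld2 was 2.69, 3.47 and 3.00 times Nrp2 in PDTLN1 libraries 1 to 3. Set among the 13836 tested genes, Dcbld2 exceeded 41.1% of them in controls and 70.0% after PDTLN1, where Nrp2 exceeded 41.1% and 42.3%.

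The gene lengths behind the FPKM differ from the exon lengths in GENCODE, and this bears on the order. The length implied by count and FPKM was 1.60 times the GENCODE exon length for Dcbld2, 1.34 times for Dcbld1, 1.17 times for Nrp2 and 0.604 times for Nrp1, with a median of 1.23 over genes with at least 10 counts in each library. With GENCODE lengths, a choice made after seeing the data, Dcbld2 was 1.38 ± 0.228 times Nrp2 in controls (SD, n = 3) and higher in each control library. On that scale Nrp2 was 8.67 times Nrp1 in controls, against 4.46 times in FPKM. Ratios of 1 gene between libraries do not depend on the length used.

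The 4 genes summed to 9.64 ± 0.266 FPKM in controls and 17.8 ± 0.158 FPKM after PDTLN1 (SD, n = 3 each). Dcbld2 made up 38.1%, 37.0% and 34.8% of that sum in controls 1, 2 and 3, and the PDTLN1 libraries had 63.1%, 64.1% and 62.3%. The share of Nrp2 was 36.7% in controls and 20.9% after PDTLN1, while its own level averaged 3.53 and 3.71 FPKM. Dcbld1 made up 18.4% and 11.6%, and Nrp1 8.26% and 4.38%. Because Dcbld2 enters the sum, these shares restate its change and are no separate result.

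**Figure D2:**
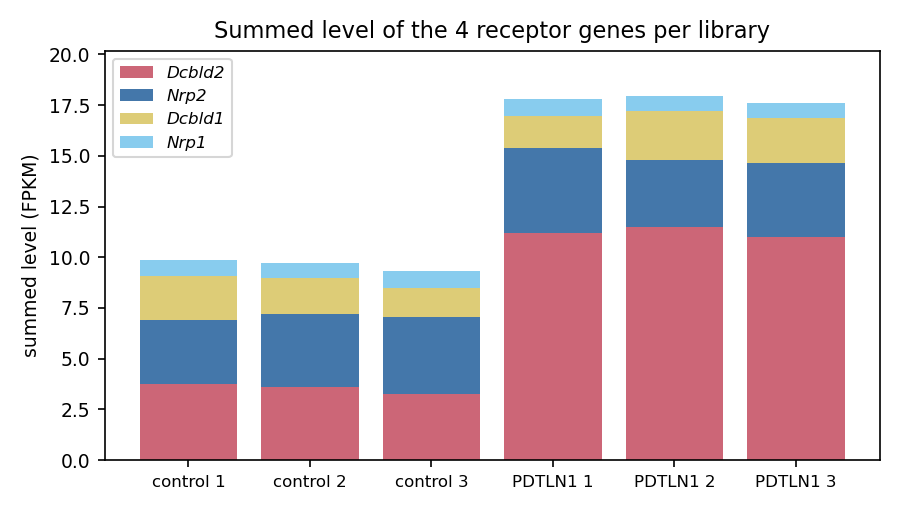
Summed FPKM of the 4 receptor genes (vertical axis) in each library (horizontal axis), stacked by gene. The sum is between 9.35 and 9.86 FPKM in controls and between 17.6 and 17.9 FPKM after PDTLN1, and the Dcbld2 segment is the part that differs.

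Dcbld2 and its neighbour St3gal6, a sialyltransferase gene on the minus strand, overlap at their ends by 1603 bases. How the counting treated strand is not given in the sources used here, so reads in the overlap cannot be assigned with certainty. St3gal6 had 43 to 69 counts in any library, against 490 to 1784 for Dcbld2. Its levels were 4.13, 4.88 and 4.66 CPM in controls and 4.65, 5.39 and 5.89 CPM after PDTLN1, a log2 fold change of 0.22 (SE 0.19) and, from edgeR, an adjusted p of 0.989. Within Nrp2, the minus-strand gene Gm29083 had 0 counts in all libraries and Gm37121 had 0 to 4 counts.

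Other genes near Dcbld2 did not pass the test. Cpox, which makes an enzyme of haem synthesis and lies 200.5 kb away, averaged 70.5 and 70.9 CPM, a log2 fold change of 0.01 (SE 0.09). Cldnd1, a claudin-like membrane protein gene 258 kb away, had a log2 fold change of -0.17 (SE 0.10). On the other side the nearest tested gene was Col8a1, a collagen gene 654 kb away, with 20.0, 26.3 and 22.0 CPM in controls and 33.0, 30.2 and 26.5 CPM after PDTLN1. All 3 treated libraries of Col8a1 lay above the controls, the nearest by little, and its log2 fold change of 0.39 (SE 0.13) had an unadjusted p of 0.0163 and, from edgeR, an adjusted p of 0.989. Cmss1 and Filip1l, 2 genes whose positions overlap each other, had log2 fold changes of -0.16 and 0.29. Of the 6 tested genes within 1 Mb, 4 lay above 0 and the median was 0.11. Of them edgeR called 0, against 0.0217% of all tested genes, and 1 had an unadjusted p under 0.05, against 3.99%. Dcbld2 at 1.67 stood outside their range of -0.17 to 0.39, but it was chosen for its difference, so nothing is read from this.

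The variation of Dcbld1 followed another division of the libraries. On the first principal component of all 13836 tested genes, which held 35.0% of the variance, control library 1 and PDTLN1 libraries 2 and 3 had negative scores and the other 3 libraries positive ones. Dcbld1 was at 21.2 to 23.3 CPM in the 3 libraries with negative scores and at 13.8 to 17.3 CPM in the 3 with positive scores, with no overlap. Such a separation was seen for 28.4% of all tested genes, and 14.0% were higher on the negative side, as Dcbld1 was. Nrp2 went the other way, at 44.2 to 50.6 CPM on the negative side and 50.5 to 58.3 CPM on the positive side, with a slight overlap. Nrp1 and Dcbld2 were not divided in this way. With both libraries numbered 1 left out, so that each group lay on 1 side, the log2 fold change of Dcbld1 was 0.53 with an SE of 0.15, an unadjusted p of 0.00623 and, from edgeR, an adjusted p of 0.139. In those 4 libraries treatment and the component cannot be told apart.

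**Figure D3:**
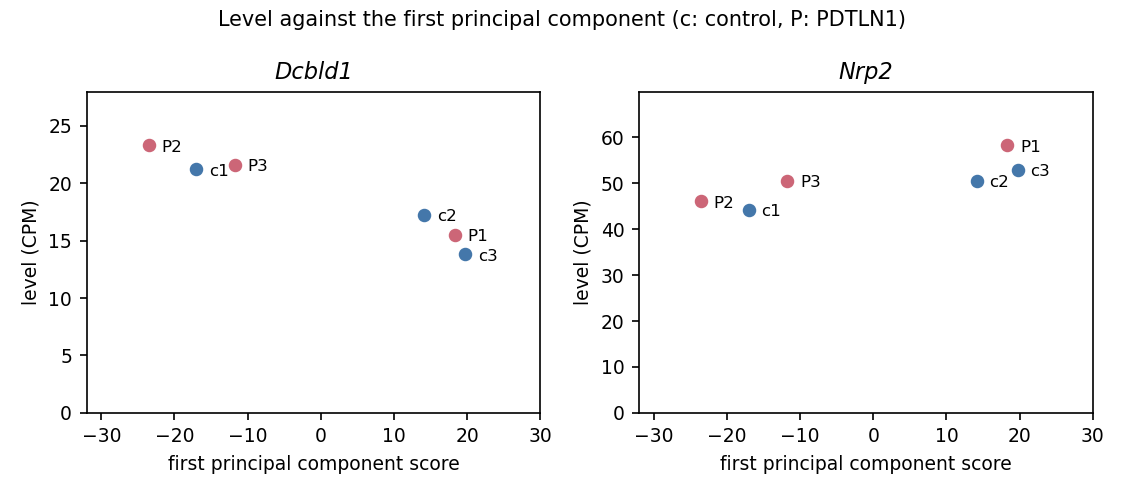
Levels of Dcbld1 and Nrp2 in CPM (vertical axes) against the score of each library on the first principal component (horizontal axes, no unit). Points are single libraries, c for control and P for PDTLN1. Dcbld1 is higher in the 3 libraries with negative scores (21.2 to 23.3 CPM) than in the others (13.8 to 17.3 CPM).

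Across the 6 libraries, likeness was measured by Pearson's r of log2 CPM over 9502 genes with a mean of at least 10 CPM. Since r ignores the size of a difference and rests on 6 libraries, these values are descriptions. Closest to Dcbld2 were Tmem135 (r = 0.988), Poc1b and Ipmk (both 0.984) and Rbms1 (0.979). As Dcbld2 was chosen for its split by treatment, genes ranked closest to it share that split, and nothing is read from this. The size of the split differed between them. Tmem135 lay at 33.6 to 34.1 CPM in controls and 35.6 to 36.0 CPM after PDTLN1. Ipmk lay at 22.0 to 26.5 CPM in controls and 59.0 to 69.2 CPM after PDTLN1. Among the genes closest to Dcbld1 were Mapk1ip1l and Tnfrsf21 (both 0.995) and Kif5b (0.994). For Nrp2 they were Limk2 (0.997), Selk (0.993), Plagl1 (0.988) and Zfyve16 (0.981), and for Nrp1 Mxd4, Itpkc and Pyroxd1 (each 0.994) and Rpusd1 (0.986). Between the receptors themselves r was 0.43 for Dcbld1 with Dcbld2, 0.49 for Nrp1 with Nrp2 and -0.76 for Dcbld1 with Nrp2.

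Genes of the class 3 semaphorins and the VEGF family, grouped here by family as neuropilin ligands, were expressed at low to moderate levels. Of them edgeR called 0, against 0.0217% of all tested genes, and DESeq2 called 0, against 0.0723%. With shares this low, nothing is read from a count of 0. From edgeR, 2 (Sema3c and Pgf) had an unadjusted p under 0.05, against 3.99% of all tested genes. Of 12 tested ligand genes 7 lay above 0 and 5 under it, and their median log2 fold change was 0.08, where that of all tested genes was 0.00 with 49.7% above 0. Among the semaphorins, which repel or steer growing axons, Sema3e had 34.0 ± 3.46 and 38.4 ± 4.37 CPM and Sema3c 19.1 ± 2.40 and 24.1 ± 1.33 CPM in control and PDTLN1 libraries (SD, n = 3 each). Sema3c had 18.6, 21.8 and 17.0 CPM in controls and 25.6, 23.4 and 23.3 CPM after PDTLN1, without overlap, a log2 fold change of 0.33 with an unadjusted p of 0.0227 and, from edgeR, an adjusted p of 0.989. Sema3a, the classical NRP1 ligand, had a log2 fold change of 0.31 (SE 0.25), and Sema3f, the classical NRP2 ligand, one of -0.07 with an SE of 0.15. Sema3b, Sema3d and Sema3g had log2 fold changes of -0.28, 0.10 and 0.05.

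Of the VEGF family, which drives vessel growth, Vegfb was the highest per length at 19.1 FPKM in controls and 17.4 FPKM after PDTLN1, with a log2 fold change of -0.14. Vegfa had 36.2, 45.7 and 55.5 CPM in control libraries 1 to 3 and 65.8, 30.2 and 31.6 CPM in PDTLN1 libraries 1 to 3. Its highest value and its lowest were both in treated libraries, and its log2 fold change of -0.11 had an SE of 0.35. Without PDTLN1 library 1 the log2 fold change of Vegfa was -0.57, with an unadjusted p of 0.00987 and, from edgeR, an adjusted p of 0.603. Without both libraries numbered 1 it was -0.71 and, from edgeR, the adjusted p was 0.0464. In the 4 libraries left, edgeR called 91 genes, and treatment and the first component cannot be told apart. Vegfa was at 30.2 to 36.2 CPM in libraries with negative scores on that component. In the others it was at 45.7 to 65.8 CPM, and 28.4% of all tested genes separated in this way. Over 14 settings the adjusted p of Vegfa ran from 0.0464 to 1.00. Pgf, the placental growth factor gene, had 2.21, 3.09 and 2.96 CPM in controls and 1.55, 1.04 and 1.79 CPM after PDTLN1. Its groups did not overlap, at 12 to 33 counts a library, and the log2 fold change of -0.91 (SE 0.30) had an unadjusted p of 0.0133 and, from edgeR, an adjusted p of 0.989. Vegfc and Figf, the gene of VEGF-D, had log2 fold changes of 0.19 each.

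Co-receptors ranged from 0.154 FPKM for Plxna4 to 12.1 FPKM for Plxna1 in controls. Per length the highest were Plxna1, a plexin that relays semaphorin signals, at 12.1 and 12.7 FPKM in control and PDTLN1 libraries, and Nrcam, a cell adhesion molecule that partners with neuropilin 2, at 10.9 and 14.0 FPKM. Nrcam had 86.5, 84.8 and 84.2 CPM in controls and 125, 100.4 and 102 CPM after PDTLN1, with every treated library above every control. Its log2 fold change of 0.36 (SE 0.09) had an unadjusted p of 0.0037 and, from edgeR, an adjusted p of 0.989. The other plexin genes Plxna2, Plxna3, Plxna4 and Plxnd1 had log2 fold changes of 0.20, 0.15, 0.02 and -0.05. The VEGF receptor genes Flt1, Kdr and Flt4 had 0.24, 0.24 and -0.09, and L1cam, the adhesion partner of neuropilin 1, had 0.19. Of the 10 co-receptor genes 8 lay above 0, with a median of 0.17. Of them edgeR called 0, against 0.0217% of all tested genes, and DESeq2 called 0, against 0.0723%. From edgeR, 1 (Nrcam) had an unadjusted p under 0.05, against 3.99% of all tested genes.

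**Figure D4:**
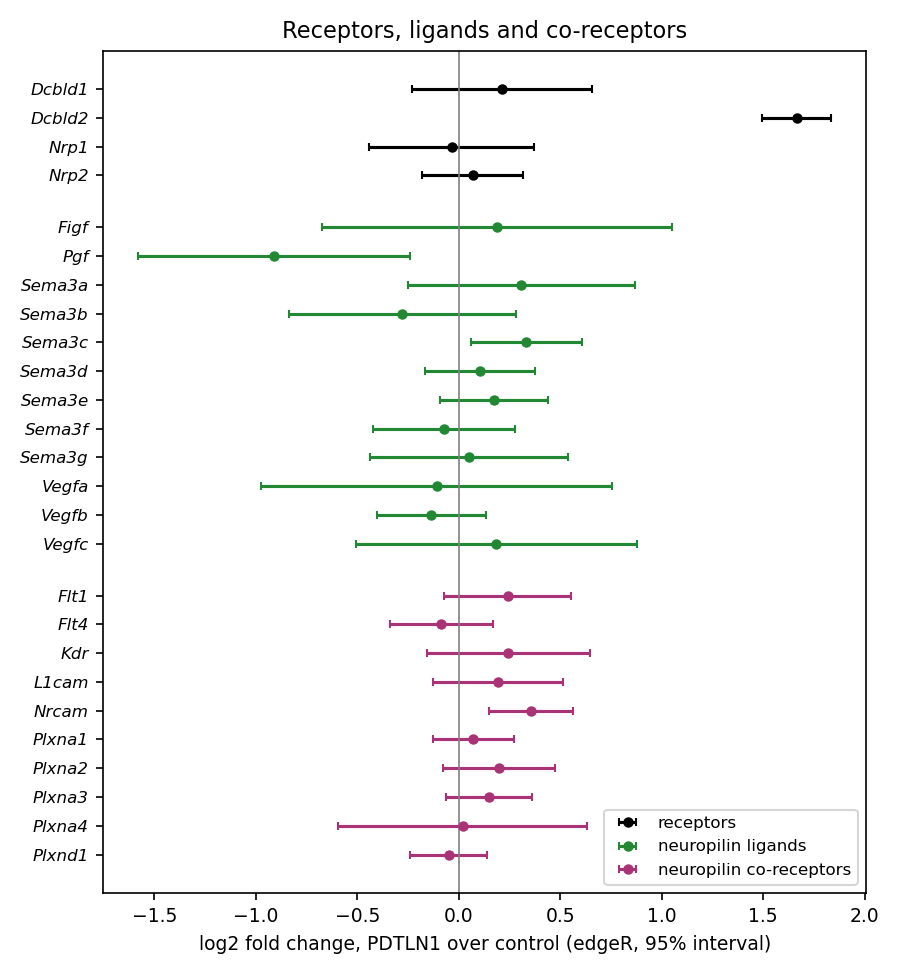
Log2 fold changes of PDTLN1 over control (horizontal axis) for the receptor genes, the neuropilin ligands and the co-receptors (vertical axis); points are edgeR estimates and bars are 95% intervals, not adjusted for the number of genes. Dcbld2 at 1.67 lies apart from the rest, which range from -0.91 for Pgf to 0.36 for Nrcam. Dcbld2 was chosen for this contrast, so its place and its interval are no test.

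Among the partners inside the cell, adaptor and kinase genes differed in how they varied. Crkl, the adaptor that binds the DCBLD tails, was the steadiest, with 113 ± 0.291 CPM in the control and 113 ± 2.31 CPM in the treated libraries (SD, n = 3 each). Crk, its relative, had 110, 227 and 246 CPM in control libraries 1 to 3 and 95.1, 130 and 113 CPM in PDTLN1 libraries 1 to 3. Control library 1 lay with the treated libraries, and the log2 fold change of -0.79 (SE 0.34) had an edgeR adjusted p of 0.989. Without control library 1 Crk had a log2 fold change of -1.07 and, from edgeR, an adjusted p of 0.0281. That fit left out the control that lay with the treated libraries and called 13 genes over all genes, so nothing is read from this p. Over 14 settings the adjusted p of Crk ran from 0.00210 to 1.00. The lowest came without both libraries numbered 1, where treatment and the first component cannot be told apart.

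Abl1, a tyrosine kinase gene, had 150, 143 and 150 CPM in control libraries 1 to 3 and 150, 60.6 and 77.0 CPM in PDTLN1 libraries 1 to 3. PDTLN1 library 1 was at the level of the controls, and the log2 fold change was -0.63 with an SE of 0.35. Without that library it was -1.10 with an edgeR adjusted p of 0.00621. That fit left out the treated library level with the controls and called 8 genes over all genes, so nothing is read from this p. Over 14 settings the adjusted p of Abl1 ran from 0.00621 to 1.00. The libraries below the others were thus 2 of the 3 with negative scores on the first component, and the other one, control library 1, had 150 CPM. Its relative Abl2 had a log2 fold change of 0.10, the kinase gene Fyn one of 0.02, and Gipc1, which binds the neuropilin tail, one of -0.16. Of 11 tested partner genes 4 lay above 0 with a median of -0.02. With edgeR 0 passed, against 0.0217% of all tested genes, and 0 had an unadjusted p under 0.05, against 3.99%. DESeq2 called 0, against 0.0723% of all tested genes.

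**Figure D5:**
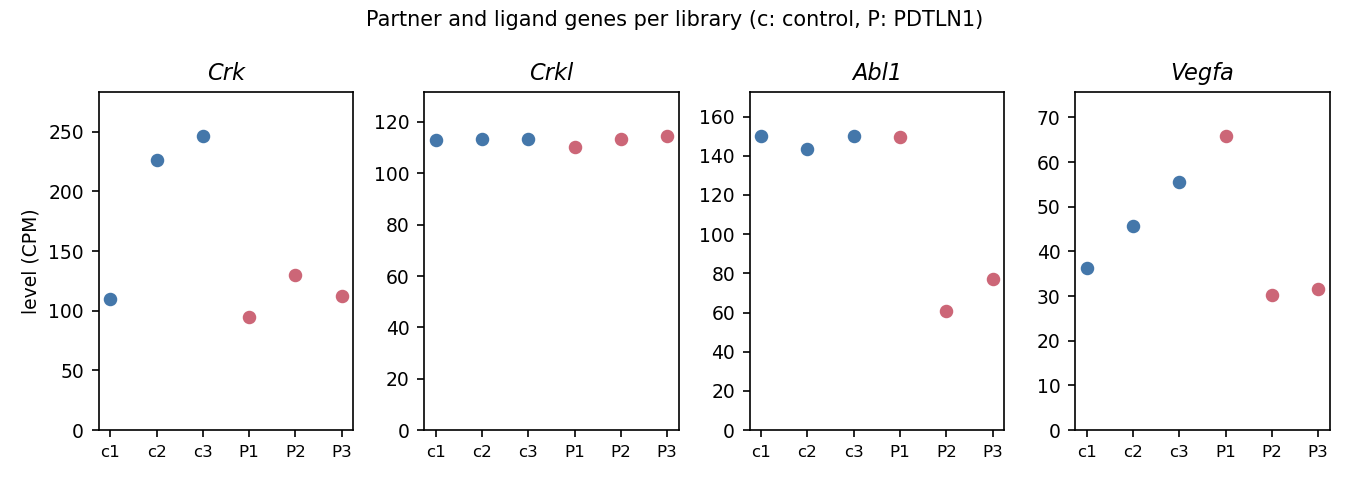
Levels in CPM (vertical axes) of Crk, Crkl, Abl1 and Vegfa in each library (horizontal axes; c1 to c3 control, P1 to P3 PDTLN1). Crkl is level in all libraries, control library 1 of Crk lies with the PDTLN1 libraries, and PDTLN1 library 1 of Abl1 lies with the controls.

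Genes that relay semaphorin signals to the cytoskeleton lay on both sides of 0, by small amounts. Dpysl3, a collapsin response mediator gene, had 23.0, 25.0 and 22.9 CPM in controls and 30.8, 29.2 and 28.9 CPM after PDTLN1, a log2 fold change of 0.32 with an unadjusted p of 0.00817. Its relative Crmp1 had a log2 fold change of -0.19 (unadjusted p 0.0234) and Cfl1, the actin-severing cofilin gene, one of -0.12 (unadjusted p 0.0321). The edgeR adjusted p was 0.989 for all 3, and 7 of the 15 genes lay above 0. With edgeR 0 of the 15 passed, against 0.0217% of all tested genes. An unadjusted p under 0.05 from that test was seen for 3, against 3.99% of all tested genes. Rac1, a small GTPase gene, had 221 to 232 CPM in controls, 249 and 223 CPM in PDTLN1 libraries 2 and 3 and 99.8 CPM in PDTLN1 library 1.

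Other genes with the same domains were compared as families. Of 16 discoidin domain genes 9 were tested and 7 lay above 0, with a median log2 fold change of 0.06. The carboxypeptidase-like gene Cpxm1 had -0.27 (unadjusted p 0.0406 and edgeR adjusted p 0.989). Mfge8, a secreted protein that bridges dying cells and phagocytes, averaged 78.9 and 82.2 CPM, and the collagen receptor kinase gene Ddr1 42.9 and 44.2 CPM. Of 31 CUB domain genes found, 22 were tested and 17 lay above 0, with a median of 0.10. Bmp1, a procollagen protease, had 18.9 to 23.2 CPM in controls and 14.0 to 16.3 CPM after PDTLN1. These groups did not overlap, as in 9.79% of all tested genes. The log2 fold change of Bmp1 was -0.45 with an unadjusted p of 0.00766 and, from edgeR, an adjusted p of 0.989. Kremen1, a Wnt pathway receptor gene, and Neto2, a glutamate receptor auxiliary subunit gene, had log2 fold changes of 0.08 and 0.12, and Pcolce, an enhancer of procollagen processing, one of 0.04. Of the LCCL domain genes, Coch and Crispld2 were tested, with log2 fold changes of -0.24 and -0.51, and Crispld1 and Vit had too few counts. In each of the domain lists edgeR called 0, against 0.0217% of all tested genes. From edgeR, 1 discoidin, 1 CUB and 0 LCCL domain genes had an unadjusted p under 0.05, against 3.99% of all tested genes.

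Over all the pathway and domain lists, 101 of 103 symbols were in the table and 81 were tested. With edgeR 0 of the 81 passed, against 0.0217% of all tested genes. From the same test 8 (9.88%) had an unadjusted p under 0.05, against 3.99% of all tested genes. The lists were chosen with earlier results of these data known, so nothing is read from this share. DESeq2 also called 0 of the 81, against 0.0723% of all tested genes. The 81 had a median log2 fold change of 0.07, with 50 above 0.

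Markers of pluripotent cells, the label of the P19 line, were expressed in all libraries. Summed pluripotent cell markers were between 2931 and 3051 CPM in the control and between 2821 and 2962 CPM in the treated libraries, with Pou5f1, Lin28a and Tdgf1 highest, while Zfp42 and Dppa5a had at most 5 counts. On the log2 scale 4 of the 6 tested markers had a fold change under 0, and the median was -0.06. Utf1, a chromatin-associated factor of undifferentiated cells, had 77.2, 73.1 and 73.0 CPM in controls and 59.3, 61.8 and 50.2 CPM after PDTLN1. Every treated library of Utf1 lay below every control, and the log2 fold change of -0.38 (SE 0.09) had an unadjusted p of 0.00248 and, from edgeR, an adjusted p of 0.989. The labels name retinas in the text on extraction, and summed photoreceptor markers were at 0.960 to 1.26 and 0.968 to 1.39 CPM, with at most 9 counts a library for Gnat1 and Sag, and with Crx and Arr3 at 0 counts in all libraries, which allows up to 0.289 CPM (3 counts in the smallest library; counting error only). Of 9 endothelial markers 4 were tested, and the summed level of 35.4 to 43.0 and 40.7 to 49.4 CPM came mostly from Flt1 and Kdr, with Pecam1 next; Emcn was at 0, and Cdh5 and Tie1 had at most 2 counts. Smooth muscle and fibroblast markers, of which 7 of 8 were tested, summed to 256 to 284 CPM in controls and 258 to 326 CPM after PDTLN1. Their median log2 fold change was -0.14, and 5 of the 7 were under 0, among them Col1a1 at -0.19. The highest, Tagln and Acta2, had 0.10 and 0.28 (unadjusted p 0.0492 and edgeR adjusted p 0.989 for Acta2). All 8 neuron markers were tested, and they summed to 206 to 240 and 178 to 213 CPM. Their median log2 fold change was -0.12 with 5 below 0. Stmn2, Tubb3 and Map2, the highest in CPM, which is not scaled to gene length, had 0.03, -0.32 and -0.15. Per length Tubb3 was the highest at 32.5 FPKM in controls, and Map2 was at 0.918 FPKM. The part of these markers in the Dcbld2 difference was not tested, and in bulk RNA fewer cells of a type and less RNA per cell cannot be told apart.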

How the data were processed

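Libraries of P19 cells, 3 control and 3 treated with PDTLN1, were prepared by an Illumina TruSeq RNA protocol and sequenced, per the labels. Counts were deposited by the authors as whole, unnormalized numbers for each gene, per the file headers. The deposited FPKM carry the same information: in all 13031 genes with at least 10 counts in each library, FPKM and count implied 1 gene length within 0.1%. The submitters' processing notes list Bowtie 0.12.2, mm8 and mm9 without saying what each was used for. Which program counted reads, with which strand setting and gene models, is not given in the sources used here. Of 34267 identifiers found in GENCODE mouse release M21, 80.8% had the same position, so positions are given in GRCm38.

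Groups came from the treatment label and columns from sample titles. With edgeR 4.0.16 in R 4.3.3, filterByExpr kept 13836 genes, TMM scaled the libraries, and glmQLFit (robust) with glmQLFTest were run two-sided, with Benjamini-Hochberg adjustment over all tested genes and a threshold of 0.05. All 4 receptor genes passed the filter. CPM use TMM-scaled library sizes, and each SE is the absolute log2 fold change over the square root of F. The receptor genes, lists, naming rule and alternatives were chosen with earlier results of these data known. Named are the receptors, all tested ligands and co-receptors, members of other lists with an unadjusted p under 0.05 or among the 3 highest, the 3 nearest tested genes on each side of Dcbld2, genes overlapping a receptor, and the 4 genes most like each receptor; 2 of the genes so chosen are not reported here. Crkl, Fyn, Gipc1 and some marker genes were named beyond this rule, after their values were seen. Alternatives were a replicate block, each library left out, both libraries numbered 1 left out, DESeq2 1.42.0, its size factors, library size alone, other filters, thresholds of 0.01 and 0.1, TPM and, added after seeing the data, GENCODE lengths. The fits were tested on simulated data.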

Additional observations from a re-analysis of the deposited data

How the results depend on the processing

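Over 13 alternatives the log2 fold change of Dcbld2 ranged from 1.61 to 1.71 and that of Dcbld1 from 0.07 to 0.53, without a change of sign. With 1 library left out, Dcbld2 ranged from 1.61 to 1.71, Dcbld1 from 0.07 to 0.38, Nrp1 from -0.093 to 0.043 and Nrp2 from -0.028 to 0.143. Nrp1 turned positive without control library 3 (0.043). Nrp2 turned negative without control library 1 (-0.0047), PDTLN1 library 1 (-0.028) or both (-0.10); fewer samples entered these fits, and the cause was not tested. Dcbld1, Nrp1 and Nrp2 had an edgeR or DESeq2 adjusted p of at least 0.139 in every setting. The number of genes called over all genes, 3 with edgeR, was 10 with DESeq2, 8 without a filter on low counts, 91 without both libraries numbered 1 and 2 to 13 with 1 library left out. It was 13 without control 1, 5 without control 3, 8 without PDTLN1 1 and 6 without PDTLN1 2. Of the pathway and domain genes 0 to 1 were called with 1 library left out, Crk or Abl1. Those fits called 2 to 13 genes over all genes. Without both libraries numbered 1 there were 3, namely Abl1, Crk and Vegfa, all lower. They were among 91 genes called over all genes, of which 50 were higher. Treatment and the first component cannot be told apart in the libraries then left, so nothing is read from these counts. With GENCODE lengths the ratio of Dcbld2 to Nrp2 was 1.38 in controls and 4.18 after PDTLN1, against 1.01 and 3.05 in FPKM, since the lengths differ; TPM left both ratios as they were. Depth limits Nrp1, at 46 to 58 counts a library, and scarcer genes such as Pgf, at 12 to 33.

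With the replicate number as a block, 1 gene was called over all genes; it was Dcbld2, which was chosen for this contrast in these libraries, so nothing is read from its call. The log2 fold changes of Dcbld2, Dcbld1, Nrp1 and Nrp2 were then 1.67, 0.21, -0.03 and 0.07. Deviations from the group means correlated at -0.36, -0.14 and -0.10 across genes for libraries numbered 1, 2 and 3. Each control library was closer to a PDTLN1 library with another number. The first component also divides the libraries within each group. These values therefore cannot show whether libraries with the same number were handled together.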
